A study of Mus musculus with 20 samples.

Results

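The genes described are 10 that mark endothelial cells, the cells that line blood vessels: Pecam1, Cdh5, Kdr, Flt1, Tek, Tie1, Emcn, Eng, Plvap and Vwf. They were taken by name from a table of 34234 genes, and all 10 were in it. RNA came from 20 mouse kidney tumours, 1 library per tumour, all grown from the single cell line MSRT1, which the labels call renal medullary carcinoma. The groups cross 2 treatments, with 5 libraries in each: vehicle and control antibody (Veh_IgG), the slow-releasing hydrogen sulfide donor GYY4137 and control antibody (GYY_IgG), vehicle and PD1 antibody (Veh_PD1), and GYY4137 and PD1 antibody (GYY_PD1). PD1 is a brake on T cells that such antibodies release, and the labels give the agent only as PD1. Every mouse thus received an antibody together with either vehicle or donor, and strain, age, dose and time of sampling are not given in the labels used here.

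Endothelial cells build vessels in answer to VEGF, which acts through the receptors Kdr and Flt1, and they hold them stable through angiopoietin, which acts through Tek and its relative Tie1. Cdh5 and Pecam1 join neighbouring cells, Emcn and Plvap are surface proteins of capillaries and veins, Eng is a co-receptor for ligands of the TGF beta family, and Vwf is the clotting factor that endothelial cells store. The kidney is rich in capillaries, and a growing tumour draws its own, so both can give RNA of these genes to a bulk sample. In bulk tissue, fewer endothelial cells and less RNA per endothelial cell cannot be told apart.

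Sequence upstream of the 4 receptor tyrosine kinases is shown because Kdr and Flt1, and likewise Tek and Tie1, are paralogues. Their RNA levels varied together across the tumours (Spearman correlation 0.75 and 0.69 over 20 libraries). This is not particular to paralogues: all 36 pairs of the tested genes of the 10 were positive, with a median of 0.63. Tek was closer to Emcn (0.79), and Tie1 to Pecam1 (0.79). Each run is the 250 bases before the gene start as RefSeq places it (GRCm38.p6), on the strand of the gene, 5′ to 3′. Capitals mark GGAA, the core of the sites that ETS factors bind, or TTCC, the same core on the other strand.
Kdr: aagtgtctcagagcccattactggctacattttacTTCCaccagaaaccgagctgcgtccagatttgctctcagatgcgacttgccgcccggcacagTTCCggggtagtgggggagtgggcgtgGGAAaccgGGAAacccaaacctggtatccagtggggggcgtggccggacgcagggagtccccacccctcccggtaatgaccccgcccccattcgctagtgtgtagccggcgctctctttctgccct
Flt1: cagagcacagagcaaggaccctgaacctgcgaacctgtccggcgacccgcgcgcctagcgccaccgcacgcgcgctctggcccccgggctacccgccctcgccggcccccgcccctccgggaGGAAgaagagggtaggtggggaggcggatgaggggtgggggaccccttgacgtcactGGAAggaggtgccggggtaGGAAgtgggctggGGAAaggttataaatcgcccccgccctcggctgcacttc
Tek: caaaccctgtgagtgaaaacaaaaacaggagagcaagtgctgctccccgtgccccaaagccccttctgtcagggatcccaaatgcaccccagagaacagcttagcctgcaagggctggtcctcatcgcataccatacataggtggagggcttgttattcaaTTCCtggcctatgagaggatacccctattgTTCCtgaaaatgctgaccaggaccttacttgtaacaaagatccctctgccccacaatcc
Tie1: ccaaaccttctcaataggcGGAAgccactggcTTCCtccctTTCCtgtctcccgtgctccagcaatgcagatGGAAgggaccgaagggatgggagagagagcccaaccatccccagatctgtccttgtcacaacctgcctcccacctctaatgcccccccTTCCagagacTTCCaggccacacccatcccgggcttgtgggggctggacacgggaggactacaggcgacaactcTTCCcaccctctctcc
These windows are chr5:75978456-75978705 (Kdr, minus strand), chr5:147726012-147726261 (Flt1, minus strand), chr4:94739039-94739288 (Tek, plus strand) and chr4:118489850-118490099 (Tie1, minus strand). For Kdr and Tie1 these starts differ from those of GENCODE M21, which gave the positions in the next paragraph. GENCODE places the start of Tie1 at 118490061. Most of the Tie1 window, and most of its marked cores, thus lie inside the gene as placed there. The core occurs 4 times before Kdr, 4 times before Flt1, 2 times before Tek and 7 times before Tie1, counting both strands. ETS factors such as Erg and Fli1 are known regulators of endothelial genes, but 93.4% of the 32851 promoters in the RefSeq table hold the core at least once in such a window, with a median of 3 matches. At least 7 matches, the number before Tie1, occur in 3.82% of them. The table holds promoters for 6 of the 10 genes.

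On mm10 Pecam1 lies on chromosome 11 (106654217 to 106750628), Cdh5 on chromosome 8 (104101625 to 104144511) and Plvap on the same chromosome (71497765 to 71511752). Kdr (75932827 to 75978458) and Flt1 (147561604 to 147726011) lie on chromosome 5, and Tek (94739289 to 94874976) and Tie1 (118471191 to 118490061) on chromosome 4. Emcn lies on chromosome 3 (137341067 to 137432185), Eng on chromosome 2 (32646595 to 32682669) and Vwf on chromosome 6 (125546774 to 125686679). All 10 are protein-coding. Eng is the only one whose exons overlap those of another annotated gene, with 61 of 4048 exon bases shared with Fpgs on the opposite strand.

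The unit is TPM, which divides by gene length and scales each library to the same total, so levels can be compared between genes. Composition differed strongly between libraries: 13 gene models that resemble satellite repeats held from 3.53% to 13.2% of TPM in Veh_IgG and from 25.8% to 83.4% in GYY_PD1. The median of the 15422 tested genes (at least 1 TPM in at least 5 libraries) ran from 7.39 to 10.9 TPM in Veh_IgG and from 0.589 to 5.74 TPM in GYY_PD1. On the deposited scale the log2 differences of these genes, GYY_PD1 minus Veh_IgG, had a median of -2.09. Levels are therefore given as multiples of the median gene of the same library, and differences as log2 of those multiples. GYY_PD1 replicates 1 and 4 stood apart, with 8198 and 6659 genes at 1 TPM or more against at least 11517 in each of the other libraries. In those 2 libraries the median gene stood at 0.589 and 0.791 TPM, so the levels there rest on very low TPM.

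Eng, Plvap and Emcn were the most abundant of the 10 genes, and Vwf the least. By the median over 20 libraries the order was Eng at 13.1 TPM, Plvap at 12.5, Emcn at 9.29, Pecam1 at 7.70, Cdh5 at 7.38, Flt1 at 3.63, Kdr at 2.20, Tie1 at 1.49, Tek at 0.776 and Vwf at 0.533. Neighbours at the top of this order were not well separated: Eng exceeded Plvap in 14 of 20 libraries, Plvap exceeded Emcn in 14 and Pecam1 exceeded Cdh5 in 8. The step down to the VEGF receptors was steadier, with Cdh5 above Flt1 in 18 libraries and Flt1 above Kdr in 19. Tie1 exceeded Tek in 17 libraries and Tek exceeded Vwf in 12. Of the 10 genes 9 passed the filter, and Vwf did not, reaching 1 TPM in 1 library.

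Pecam1, an adhesion molecule of the endothelial surface that leukocytes and platelets carry as well, was found in every tumour. In replicates 1 to 5 of Veh_IgG it stood at 1.31, 0.508, 1.42, 1.96 and 1.02 times the library median, and in GYY_PD1 at 1.53, 1.04, 4.23, 1.82 and 1.82. GYY_IgG gave 1.09, 1.92, 1.27, 1.77 and 1.38, and Veh_PD1 gave 1.32, 1.36, 1.02, 1.11 and 0.879. All 4 groups overlap, with the lowest tumour in Veh_IgG and the highest in GYY_PD1. Relative to Veh_IgG the log2 difference was 0.71 in GYY_PD1 (SE 0.34, 1.64-fold, 95% interval 0.996 to 2.70; adjusted p = 0.297 with limma), with means of 0.18 ± 0.73 and 0.90 ± 0.74 on the log2 scale (SD, n = 5).

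Cdh5, the cadherin of endothelial junctions, is known to be largely restricted to endothelium. It stood at 1.65, 0.428, 1.54, 1.73 and 1.11 times the median in replicates 1 to 5 of Veh_IgG and at 0.770, 1.09, 3.89, 1.15 and 1.66 in GYY_PD1. GYY_IgG gave 1.58, 2.31, 1.40, 2.10 and 1.48, and Veh_PD1 gave 0.643, 1.36, 1.02, 1.16 and 0.998. Again the groups overlap, and Veh_IgG replicate 2 is the lowest and GYY_PD1 replicate 3 the highest of all 20. The log2 difference of GYY_PD1 from Veh_IgG was 0.32 (SE 0.40; adjusted p = 0.630 with limma).

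Kdr, the main signalling receptor for VEGF, was lower and more variable. Its levels were 0.507, 0.106, 0.471, 0.524 and 0.412 times the median in Veh_IgG and 0.749, 0.277, 1.49, 0.316 and 0.509 in GYY_PD1. GYY_IgG gave 0.375, 0.840, 0.419, 0.307 and 0.492, and Veh_PD1 gave 0.266, 0.289, 0.296, 0.268 and 0.206. Veh_PD1 is the tightest of the 4 groups, with an SD of 0.21 on the log2 scale against 0.98 in Veh_IgG and 0.99 in GYY_PD1. Each of its 5 libraries lay below 4 of the 5 Veh_IgG libraries and above the other one, replicate 2. The log2 difference of Veh_PD1 from Veh_IgG was -0.42 (SE 0.47) and that of GYY_PD1 was 0.64 (SE 0.47; adjusted p = 0.419 with limma). The latter was 0.20 without Veh_IgG replicate 2 and 0.28 without GYY_PD1 replicate 3.

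Flt1, which binds VEGF tightly and in its soluble form holds it back, ran from 0.307 to 0.944 times the median in Veh_IgG, 0.643 to 0.977 in GYY_IgG, 0.50 to 0.802 in Veh_PD1 and 0.456 to 1.56 in GYY_PD1. It reached its highest level in GYY_PD1 replicate 1, one of the libraries with few genes at 1 TPM or more, at 0.919 TPM. The log2 difference of GYY_PD1 from Veh_IgG was 0.38 (SE 0.33; adjusted p = 0.482 with limma).

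Tek, the angiopoietin receptor, varied more than any other tested member, with an SD of 1.06 on the log2 scale over the 20 libraries, where Eng had 0.40. Veh_IgG gave 0.152, 0.0279, 0.362, 0.456 and 0.0662 times the median, and GYY_PD1 gave 0.223, 0.152, 0.822, 0.196 and 0.157. GYY_IgG gave 0.148, 0.392, 0.154, 0.176 and 0.163, and Veh_PD1 gave 0.115, 0.297, 0.304, 0.104 and 0.103. Within Veh_IgG alone the levels thus span the range of both single-treatment groups. The log2 difference of GYY_PD1 from Veh_IgG was 0.84 with an SE of 0.69, an interval from 0.660-fold to 4.86-fold (adjusted p = 0.455 with limma). It was 0.27 without Veh_IgG replicate 2, 0.40 without GYY_PD1 replicate 3 and 1.28 without Veh_IgG replicate 4. Tie1, an orphan receptor that modulates Tek, ran from 0.123 to 0.424 times the median in Veh_IgG and from 0.157 to 0.984 in GYY_PD1, with a log2 difference of 0.39 (SE 0.44; adjusted p = 0.582 with limma).

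Emcn, a mucin-like protein of capillary and venous endothelium, varied widely among the Veh_IgG tumours, with an SD of 1.43 on the log2 scale. Its levels there were 1.18, 0.283, 2.78, 3.48 and 1.03 times the median, and in GYY_PD1 1.20, 1.59, 3.83, 1.16 and 1.47. GYY_IgG gave 1.96, 3.33, 2.14, 1.72 and 1.62, and Veh_PD1 gave 1.38, 3.22, 2.93, 1.32 and 1.17. Every group holds at least 1 tumour above 3 times the median, so the groups overlap over most of the range. The log2 difference of GYY_PD1 from Veh_IgG was 0.38 (SE 0.54; adjusted p = 0.661 with limma).

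Eng was the steadiest member. It stood at 3.16, 1.75, 2.90, 3.39 and 2.44 times the median in Veh_IgG and at 1.56, 2.32, 4.05, 2.60 and 2.85 in GYY_PD1. The log2 difference was -0.06 (SE 0.25; adjusted p = 0.897 with limma), which is 0.961-fold with a 95% interval from 0.670 to 1.38. Plvap, which forms the diaphragms of fenestrated capillaries, ran from 0.972 to 3.69 times the median in Veh_IgG and from 1.45 to 5.11 in GYY_PD1, with a log2 difference of 0.20 (SE 0.36; adjusted p = 0.737 with limma).

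Relative to the library median, Vwf did not vary with the other members. Veh_IgG tumours held it at 0.737, 0.586, 0.267, 0.486 and 0.721 TPM, and GYY_IgG tumours at 0.685, 0.566, 0.800, 0.771 and 0.534. Veh_PD1 gave 0.967, 0.313, 0.476, 0.531 and 0.340 TPM. In GYY_PD1 it was listed at 0 in replicate 1 and at 0.458, 1.57, 0.358 and 0.527 in the others. It exceeded 1 TPM only in GYY_PD1 replicate 3, the tumour in which most other members were highest. As a multiple of the library median it was highest in GYY_PD1 replicate 4 (0.453), then Veh_PD1 replicate 1 (0.334), with 0.299 in GYY_PD1 replicate 3. Over the 20 libraries its Spearman correlation with the other 9 members, each relative to the library median, ran from -0.35 to 0.03. Vwf lay near the floor in TPM while the library medians ran from 0.589 to 10.9 TPM. How far these coefficients reflect the division by the median was not tested. Vwf entered no test because it did not pass the filter, and the read depth behind these low values is unknown. Megakaryocytes and platelets also carry Vwf, and 4 of 6 platelet markers passed the filter. The summed level of the markers ran from 4.37 to 8.38 times the median in Veh_IgG, 3.49 to 13.1 in GYY_IgG, 3.58 to 7.86 in Veh_PD1 and 4.47 to 8.37 in GYY_PD1. Pf4 alone gave most of the sum in all libraries but GYY_PD1 replicate 1. In Veh_IgG replicate 1 and GYY_IgG replicate 4 Pf4 stood at 3.18 and 11.2 times the median, and Itga2b at 0.0977 and 0.235. The sums are thus mainly a reading of 1 gene. No platelet marker was at 0 in every library of a group, and the part of platelets and megakaryocytes in the Vwf values was not tested.

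**Figure D1:**
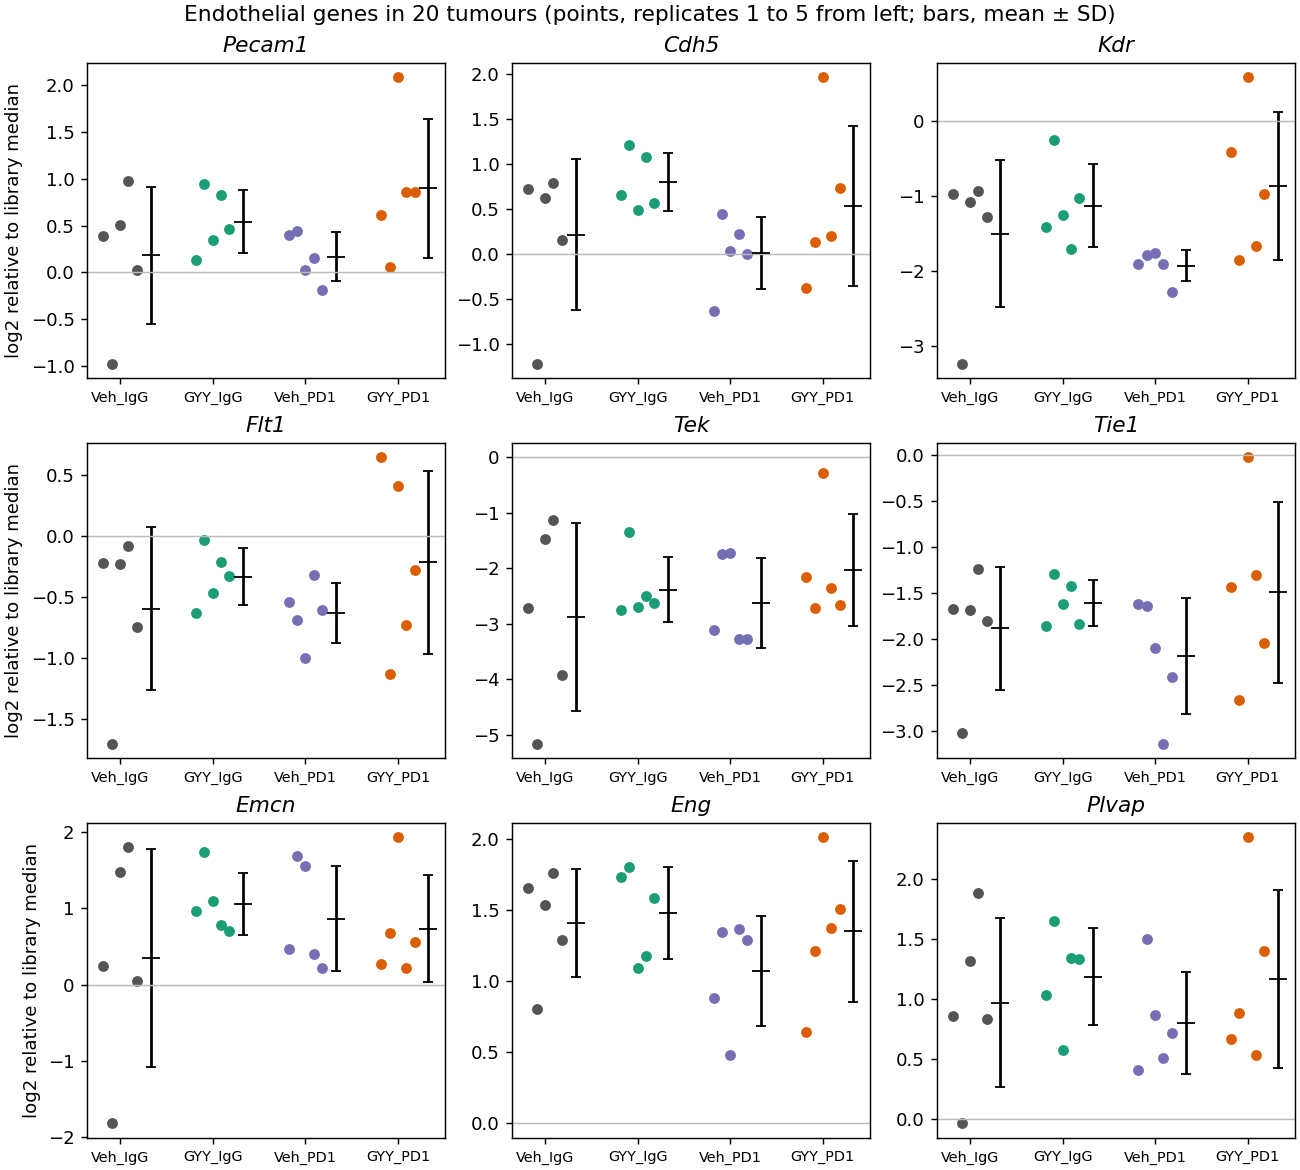
Levels of the 9 tested endothelial genes in each tumour, as log2 relative to the median gene of the library (vertical axis), by group (horizontal axis); points are replicates 1 to 5 from left to right, and bars give mean ± SD. The groups overlap for all 9 genes, Veh_IgG replicate 2 sits lowest for 7 of them and GYY_PD1 replicate 3 highest for 8.

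The combination was compared with neither treatment to ask how both together change the tumour. None of the 9 tested members passed limma (adjusted p under 0.05 over all 15422 genes), and none reached an unadjusted p under 0.05. Of all genes 0% passed the adjusted threshold and 16.9% had an unadjusted p under 0.05. The means of 8 members were higher in GYY_PD1, with a median log2 difference of 0.38, where 37.6% of all genes were higher and the median of all genes was -0.17. For 0 of the 9 did the groups separate fully in either direction, against 1.63% of all genes upward and 1.63% downward. The median rested on single tumours: it was 0.08 without GYY_PD1 replicate 3, 0.10 without Veh_IgG replicate 2, 0.61 without GYY_PD1 replicate 2 and 0.71 without GYY_PD1 replicates 1 and 4, with 0 members passing in each case. With TPM rescaled to protein-coding genes, satellite-like models left out, and a pseudocount of 1, a scale chosen after seeing the data, the median was 0.17 and 0 members passed. On 2 other scales, TPM as deposited and TPM rescaled with satellite-like models kept, the medians were -1.53 and -1.72, and 2 and 8 of the 9 members passed as lower, where 69.9% and 90.7% of all genes did so.

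Each treatment alone was compared with Veh_IgG in the same fit, so the 3 comparisons share those 5 controls. With the donor alone all 9 members had a higher mean, from a log2 difference of 0.07 for Eng to 0.71 for Emcn (SE 0.54), with a median of 0.36. The direction turned with the scale: the median was -0.03 on TPM as deposited, where 3 of 9 members were higher, and -0.37 on TPM rescaled with satellite-like models kept, where 0 of 9 were. Among all genes 47.9% were higher, with a median of -0.01. No member passed limma, none had an unadjusted p under 0.05, and 0% and 1.15% of all genes did so. Without Veh_IgG replicate 2 the median of the members was -0.01, and without GYY_IgG replicate 2 it was 0.20. With the antibody alone 2 of 9 members had a higher mean, Emcn (log2 difference 0.52, SE 0.54) and Tek (0.25, SE 0.69), and the median was -0.17, where 43.5% of all genes were higher and the median of all genes was -0.04. Again no member passed limma or had an unadjusted p under 0.05, where 0% and 1.77% of all genes did. The median of the members was -0.42 without Veh_IgG replicate 2, 0.06 without Veh_IgG replicate 4, and between -0.31 and -0.07 without each other library of those groups. In neither comparison did any member separate the groups fully, as 0.415% of all genes did upward and 0.454% downward with the donor, and 0.467% and 0.324% with the antibody.

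Averaged over both antibodies, the donor went with higher means of all 9 members and a median log2 difference of 0.48, against 41.7% of all genes higher and a median of -0.06. On TPM as deposited and TPM rescaled with satellite-like models kept, 0 of 9 were higher, with medians of -0.24 and -0.42. Kdr had the largest difference, 0.72 (SE 0.33; adjusted p = 0.573 with limma), followed by Cdh5 at 0.55 (SE 0.28) and Pecam1 at 0.54 (SE 0.24; adjusted p = 0.573 with limma). No member passed limma, and 2 of 9, Kdr and Pecam1, had an unadjusted p under 0.05, as did 8.59% of all genes, of which 0% passed after adjustment. The median of the members was 0.25 without Veh_IgG replicate 2 and 0.30 without GYY_PD1 replicate 3. Averaged over vehicle and donor, the antibody gave differences from -0.23 (Cdh5, SE 0.28) to 0.30 (Tek, SE 0.48), a median of -0.08 4 of 9 members higher (36.6% of all genes), and 0 members with an unadjusted p under 0.05 (7.61% of all genes, of which 0% passed after adjustment). For the antibody average those 2 scales gave medians of -1.27 and -1.18, with 0 and 8 members passing as lower, the latter where 86.2% of all genes did so. The interaction, which asks whether the donor acts differently with the antibody, was positive for 7 of 9 members (41.5% of all genes) and ran from -0.84 for Emcn (SE 0.76) to 0.69 for Kdr (SE 0.66), with 0 members at an unadjusted p under 0.05 (2.44% of all genes) and 0% of genes passing. Its median was 0.15. On TPM as deposited and TPM rescaled with satellite-like models kept it was -0.51 and -0.21, and 3 and 4 of 9 members kept their direction.

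**Figure D2:**
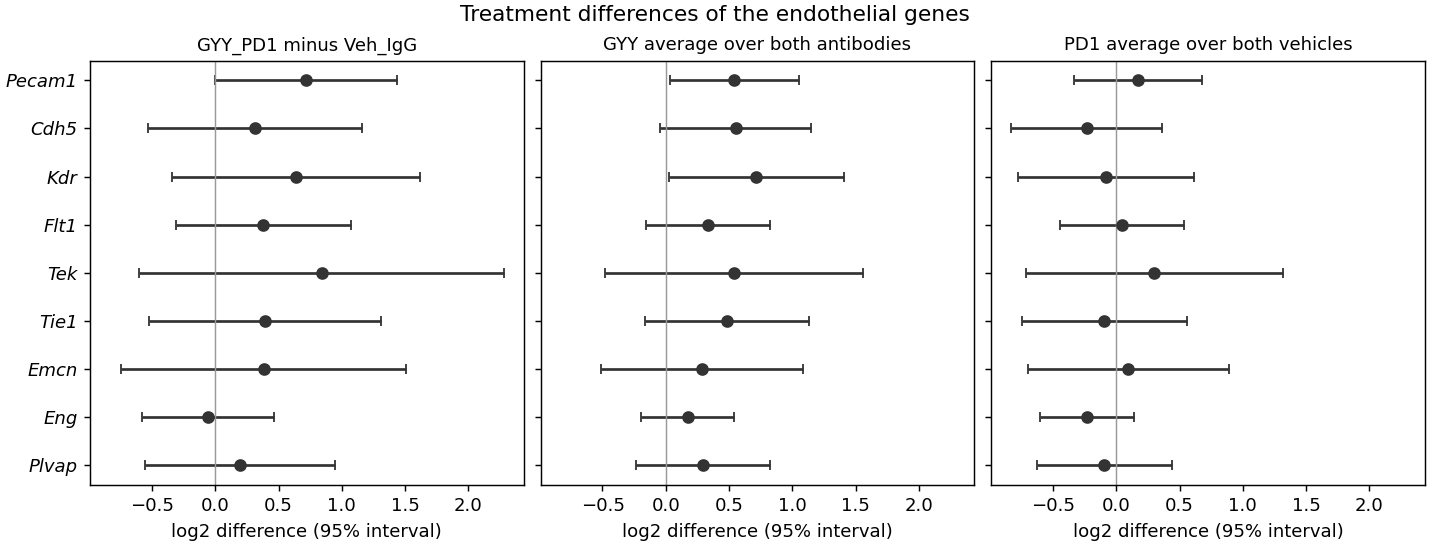
Differences of the 9 tested endothelial genes (points, log2 relative to the library median, horizontal axis) with their 95% intervals from limma, for the combination against neither treatment, the donor averaged over both antibodies and the antibody averaged over both vehicles. All intervals of the combination include 0, and with the donor average those of Pecam1 and Kdr lie just above 0 before adjustment.

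The members varied together from tumour to tumour. Over 20 libraries all 36 pairs of the 9 genes had a positive Spearman correlation, from 0.35 to 0.80 with a median of 0.63. These points share the library and its scaling, so the coefficients are descriptions. The 4 highest were those of Cdh5 and Plvap (0.80), Pecam1 and Tie1 (0.79), Eng and Cdh5 (0.79), and Tek and Emcn (0.79). The mean of the 9 genes ran from -1.82 in Veh_IgG replicate 2 to 0.42 in Veh_IgG replicate 4 among tumours given neither treatment, a span that contains every other library but GYY_IgG replicate 2 at 0.49 and GYY_PD1 replicate 3 at 1.22. The group means of this value were 0.01 ± 0.71 for GYY_PD1, -0.04 ± 0.31 for GYY_IgG, -0.42 ± 0.87 for Veh_IgG and -0.49 ± 0.28 for Veh_PD1 (SD, n = 5). The lower end of the Veh_IgG span rests on replicate 2. The next lowest there was replicate 5 at -0.60, and Veh_PD1 replicates 1, 4 and 5 lay below that, at -0.63, -0.66 and -0.73.

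**Figure D3:**
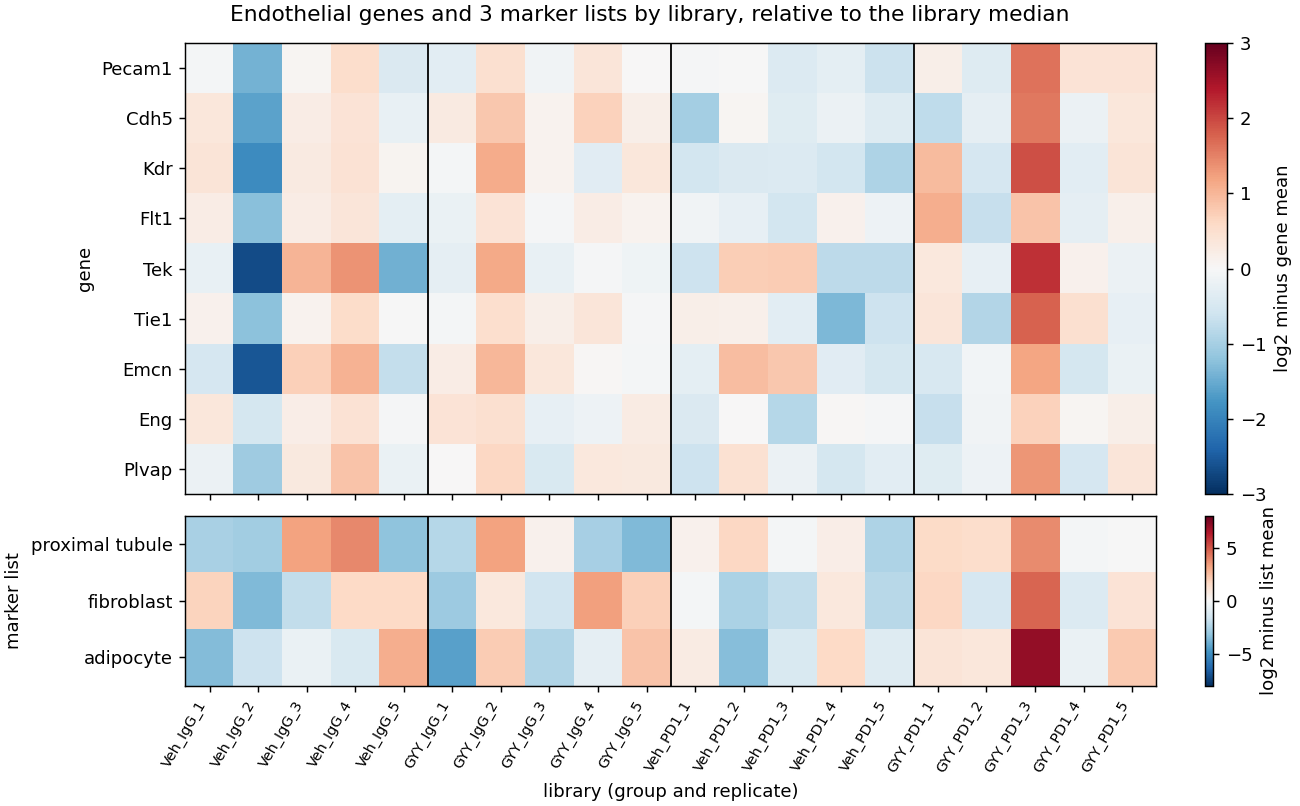
Each endothelial gene (upper rows) and the mean of 3 lists of markers (lower rows) in the 20 libraries (columns), coloured by log2 relative to the library median minus the mean of that gene or list over the libraries. Veh_IgG replicate 2 is low and GYY_PD1 replicate 3 is high across the endothelial rows, and the latter is high for all 3 marker lists.

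The 10 highest Spearman correlations with the mean of the 9 members over 20 libraries were taken among tested genes outside the members. Provisional names, pseudogenes and genes without an annotated type were left out. The first were those of Nid1 (0.86), which links laminin to collagen in the basement membrane, Cd34 (0.84), a sialomucin of capillaries, Ptprb (0.84), the phosphatase that restrains Tek, and Hspg2 (0.84), the basement membrane proteoglycan perlecan. Robo4 (0.82), an endothelial guidance receptor, Lama4 (0.81), a laminin chain of vessel walls, S1pr1 (0.81), a receptor for sphingosine phosphate, Ddah1 (0.80), Pdgfrb (0.80), the pericyte receptor for PDGF, and Timp3 (0.80), a matrix protease inhibitor, complete the list. Without the 2 libraries at the ends of the range, Veh_IgG replicate 2 and GYY_PD1 replicate 3, the same genes had correlations from 0.72 to 0.81. Nid1 was at 4.06 TPM in the median library and Robo4 at 1.39.

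Other tissue in the samples moved with part of these genes. Proximal tubule markers, which label kidney tissue, had 4 of 6 genes past the filter, and their summed level ran from 0.0738 to 10.9 times the median in Veh_IgG, 0.0683 to 6.22 in GYY_IgG, 0.256 to 1.84 in Veh_PD1 and 0.729 to 17.2 in GYY_PD1. No tubule marker was at 0 in every library of a group. In 4 tumours, Veh_IgG replicates 3 and 4, GYY_IgG replicate 2 and GYY_PD1 replicate 3, the mean of the tubule markers lay between -0.18 and 0.45 on the log2 scale, apart from the other 16, which lay between -6.94 and -1.74. GYY_PD1 replicate 1 had the highest summed level, 17.2, but a mean of -1.85, so it is not among the 4. In that tumour Tek stood at -2.17, Emcn at 0.27 and Eng at 0.64 on the log2 scale. Tek ran from -1.47 to -0.28 in those 4 and from -5.16 to -1.72 in the other 16, the only member for which the ranges did not meet. Emcn ran from 1.48 to 1.94 in the 4 and from -1.82 to 1.69 in the others, and Eng from 1.53 to 2.02 and from 0.48 to 1.73. No coefficient is given over all 20 because the 4 lie apart. Within the other 16 the Pearson correlation with the tubule mean was 0.49 for Tek (Spearman 0.34), 0.40 for Emcn (Spearman 0.34), -0.35 for Eng (Spearman -0.21) and -0.14 for Cdh5 (Spearman -0.19). The part of kidney tissue in the endothelial values was not tested further than by the following fit. With the tubule mean as a covariate, an alternative chosen after seeing the data, the median difference of the combination was 0.19 and 0 members passed.

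**Figure D4:**
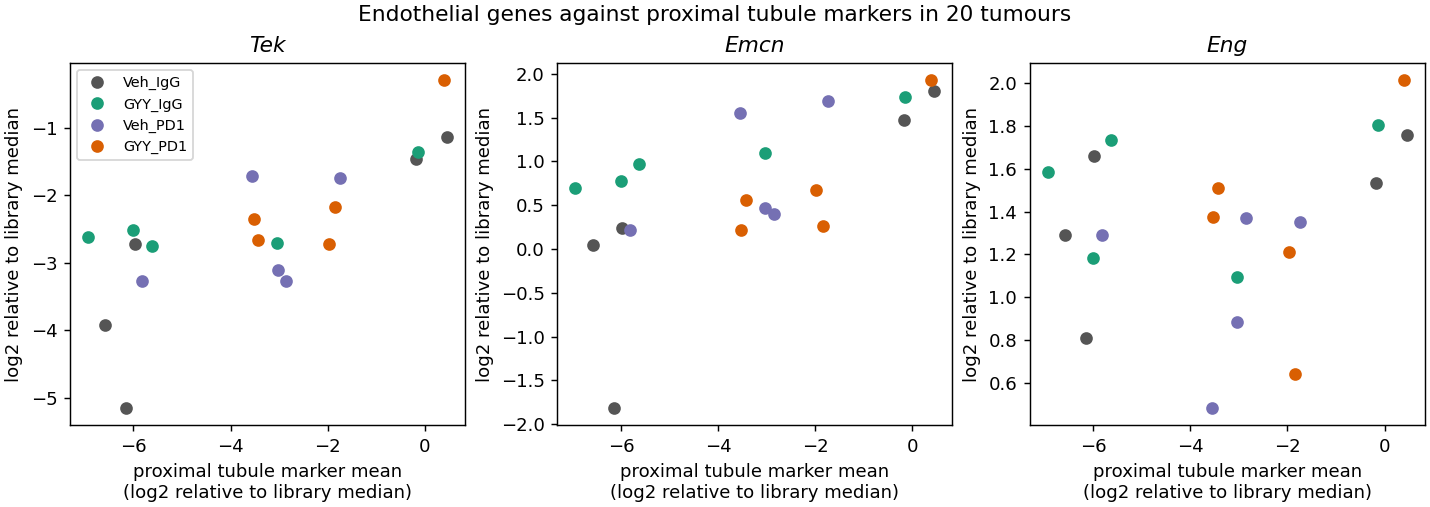
Levels of Tek, Emcn and Eng (vertical axes) against the mean of the 4 tested proximal tubule markers (horizontal axis), both as log2 relative to the library median, 1 point per tumour coloured by group. The 4 tumours with the highest mean of these markers, from 3 groups, lie apart at the right of each panel and are high for all 3 genes. The other 16 spread between 0.48 and 1.73 for Eng.

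Fibroblast and fat markers moved as well. All 6 fibroblast markers passed the filter, and their summed level ran from 0.432 to 17.1 times the median in Veh_IgG, 1.54 to 50.7 in GYY_IgG, 1.03 to 8.14 in Veh_PD1 and 2.00 to 107 in GYY_PD1, where the highest was replicate 3. For adipocyte markers, with 4 of 6 past the filter, the ranges were 0.820 to 12.05, 2.86 to 8.91, 1.93 to 5.49 and 3.88 to 163. The Pearson correlation of the mean of the 9 members with the fibroblast mean was 0.60, and 0.25 without the 2 libraries farthest from the median, so much of it rests on those libraries. With the adipocyte mean it was 0.39 and then 0.06. The members differed from one another. Without the 2 libraries farthest from the fibroblast median, their correlations with the fibroblast mean ran from -0.28 for Emcn to 0.57 for Flt1. No marker of either list was at 0 in every library of a group, and the part of these tissues in the endothelial values was not tested.

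Leukocytes share Pecam1, and activated macrophages carry Eng. All 5 macrophage markers passed the filter, and their summed level ran from 103 to 158 times the median in Veh_IgG, 88.9 to 162 in GYY_IgG, 69.7 to 110 in Veh_PD1 and 65.3 to 135 in GYY_PD1. Eng had the highest correlation with their mean among the 9 members (Pearson 0.56, Spearman 0.59, and Pearson 0.63 without the 2 libraries farthest from the median), where the mean of the 9 members had 0.21. Cdh5, largely restricted to endothelium, came next at 0.37 (Spearman 0.44), and Pecam1 had 0.22 (Spearman 0.09). Of 5 T cell markers 4 passed the filter, with summed levels from 0.240 to 0.399 times the median in Veh_IgG, 0.439 to 1.11 in GYY_IgG, 0.325 to 1.77 in Veh_PD1 and 0.839 to 7.54 in GYY_PD1. The mean of the 9 members had a Pearson correlation of 0.26 with the T cell mean. No marker of these lists was at 0 in every library of a group, and the part of leukocytes in the Pecam1 and Eng values was not tested.

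Further genes of the vessel wall were read from lists, in a comparison where 0% of all genes were called. Of 20 other endothelial genes 16 passed the filter, 0 were called in the combination, and 14 had a higher mean, with a median log2 difference of 0.40 against -0.17 for all genes. The smallest p were those of the ETS factor Erg (1.15, SE 0.45; adjusted p = 0.257 with limma), Mmrn2 (0.97, SE 0.50), the ETS factor Fli1 (0.53, SE 0.29) and the nitric oxide synthase Nos3 (1.08, SE 0.59). Among 14 angiogenic ligands and receptors 12 passed the filter, 0 were called and 6 were higher, with a median of -0.01. Angpt2, the ligand that opposes Tek signalling, had 1.11 (SE 0.56; adjusted p = 0.313 with limma), Aplnr, the apelin receptor, 0.75 (SE 0.57), Esm1, secreted by sprouting tip cells and listed at 0 in 1 library, -1.12 (SE 0.95) and the co-receptor Nrp2 -0.17 (SE 0.18).

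Arterial, venous and Notch genes gave 0 calls among 7 of 11 past the filter, with 4 higher and a median of 0.27. Notch4, an endothelial Notch receptor, had 1.20 (SE 0.50; adjusted p = 0.270 with limma), the venous receptor Ephb4 -0.40 (SE 0.18), its arterial ligand Efnb2 0.57 (SE 0.43) and Notch1 -0.23 (SE 0.18). Of 7 genes for leukocyte adhesion 3 passed the filter: Vcam1 (0.26, SE 0.47), Icam1 (-0.27, SE 0.44) and Cd93 (0.09, SE 0.50), again with 0 calls and a list median of 0.09, while Sele, Selp, Madcam1 and Ackr1 stayed under it. The lymphatic list kept 2 of 5 genes, both lower without passing: Lyve1, which some macrophages also carry, had -1.88 (SE 0.68; adjusted p = 0.244 with limma) and Pdpn -0.42 (SE 0.28). Pdpn stood at a median of 163.9 TPM, far above any endothelial member, Prox1 and Reln stayed under the filter, and Ccl21a was not analysed here. Of 10 mural cell genes 9 passed the filter, 0 were called and 4 were higher, with a median of -0.04. Those with the smallest p were the channel gene Kcnj8 (-1.69, SE 0.95), which was listed at 0 in 1 library, Cspg4 (1.32, SE 0.75), Notch3 (1.22, SE 0.71) and Rgs5 (-0.65, SE 0.46). The mean of the 9 tested mural cell genes had a Pearson correlation of 0.77 with the mean of the 9 members. Without the 2 libraries farthest from the median it was 0.69.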

How the data were processed

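Bulk RNA of 20 tumours was analysed in 4 groups of 5, as the titles of the samples give them. The authors deposited log2 TPM, with -8.88 standing for 0 TPM. Per the submitters' processing notes, cutadapt, fastp, Salmon 0.14.1, HTSeq 0.11.0 and mm10 were used, and which of them made the TPM is not given in the sources used here. TPM keep no read depth, so no counting interval is given. In each library the median of the 15422 genes that reached 1 TPM in 5 or more libraries was subtracted. The fit used limma 3.58.1 (R 4.3.3) on all tested genes, with 1 mean per group over 20 libraries, trended variance and Benjamini-Hochberg adjusted p under 0.05, and the fit was tested on simulated data. The members and lists were chosen with earlier results of these data known. All 10 members are named, up to 4 genes with the smallest p per vascular list, and the 10 genes most like the mean of the members by Spearman correlation. The last ranking left out provisional names, pseudogenes and genes without an annotated type. Positions and gene types were read from GENCODE M21, where 33908 names were found. Satellite-like models are those with repeats of 225 to 240 bases, at least 50% identical to themselves, that share 20% of 12-mers with Gm10800, over transcripts of at least 400 bases. The labels call the samples biological replicates. Alternatives were other scalings, pseudocounts, filters and fits, and each library left out.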

Additional observations from a re-analysis of the deposited data

Results flagged for a closer look

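In each group of 5 tumours the highest and lowest values were examined on the log2 scale. The rule was a gap to the next tumour of more than 0.71 of the range of the group. Of 44 groups of values 6 had such a gap, and chance gives about 1 in 20. The genes vary together and their mean is among the values, so the 44 groups are not independent. Levels of single genes are printed below as multiples. Kdr in Veh_IgG replicate 2 stood at 0.106 times the library median, where the other 4 tumours ran from 0.412 to 0.524. Tek in GYY_IgG replicate 2 stood at 0.392, above 0.148 to 0.176 in the others. GYY_PD1 replicate 3 stood apart for Tek (0.822 against 0.152 to 0.223) and Emcn (3.83 against 1.16 to 1.59). The mean of the 9 members was set apart in the same 2 tumours, at 0.49 in GYY_IgG replicate 2 (others -0.27 to -0.07) and 1.22 in GYY_PD1 replicate 3 (others -0.60 to -0.10), on the log2 scale. Both tumours also had proximal tubule means among the 4 highest, -0.14 and 0.39 on the log2 scale, and the part of kidney tissue in these gaps was not tested.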

How the results depend on the processing

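Scaling decides the direction. On log2 TPM as deposited the median difference of the members was -1.53 for the combination, -0.03 for the donor alone, -1.03 for the antibody alone, -0.24 and -1.27 for the donor and antibody averages and -0.51 for the interaction, and 2 of 9 members passed in the combination (69.9% of all genes passed as lower), Flt1 reversed to -1.54 and Eng at -1.97. Rescaled to protein-coding genes with satellite-like models kept in, the medians were -1.72 (combination), -0.37 (donor alone), -1.10 (antibody alone), -0.42 (donor average), -1.18 (antibody average) and -0.21 (interaction). On that scale 8 of 9 members passed in the combination and 8 in the antibody average, where 90.7% and 86.2% of all genes passed as lower. Reversed there in the combination were Pecam1 (-1.57), Cdh5 (-1.81), Kdr (-1.28), Flt1 (-1.72), Tie1 (-1.36), Emcn (-1.83) and Plvap (-2.05), and in the antibody average Pecam1 (-1.15), Flt1 (-1.18) and Emcn (-1.20). Without the satellite-like models the median of the combination on that scale was 0.17. The deposited scale carries the shift of the library medians, and on it the median log2 difference of all genes in the combination was -2.09. Otherwise the cause was not tested. No member passed under any of the other 11 settings or the 20 in which 1 library was left out.

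With 1 library left out the medians ran from 0.08 to 0.61 for the combination, -0.01 to 0.51 for the donor, -0.42 to 0.06 for the antibody, 0.25 to 0.60 and -0.24 to 0.05 for the averages and -0.01 to 0.43 for the interaction. The antibody average was -0.24 without GYY_PD1 replicate 3 and 0.05 without GYY_PD1 replicate 2, and the interaction was -0.01 without GYY_PD1 replicate 3 and 0.43 without Veh_IgG replicate 2. In the combination Cdh5 (-0.04 to 0.54), Emcn (-0.16 to 0.75), Plvap (-0.10 to 0.43) and Eng (-0.22 to 0.12) changed sign, never past the threshold. Without Veh_IgG replicate 2 or GYY_PD1 replicate 3 the other members were lower than with all libraries, Pecam1 at 0.42 and 0.42, Kdr at 0.20 and 0.28, Flt1 at 0.10 and 0.22, Tek at 0.27 and 0.40 and Tie1 at 0.11 and 0.02. Without GYY_PD1 replicate 1 Flt1 was 0.16, and without GYY_PD1 replicate 2 Flt1 was 0.61 and Tie1 0.68. Tek was 1.28 without Veh_IgG replicate 4. The count of all genes called was 0 in every comparison on the main scale. In the combination it was 10831 of 15422 as deposited, 10737 of 11811 rescaled with satellite-like models, 41 with a pseudocount of 1 TPM, 18 with library weights, 13 with no filter, 8 with only the groups compared, 1 with at least 5 TPM in 5 libraries, 1 without the 2 mice whose numbers lie apart (GYY_IgG replicate 5 and GYY_PD1 replicate 1) and up to 8 with 1 library left out (GYY_PD1 replicate 5). For the donor average it was 2 as deposited, 1 rescaled, 21 with library weights, 3 without those mice and up to 3 with 1 library left out (GYY_IgG replicate 5, GYY_PD1 replicates 3 and 5). For the antibody average 10202 of 11811 rescaled, 1 with no filter and up to 3 (GYY_PD1 replicates 3 and 5), and for the interaction 1 rescaled and up to 3 (the same 2 libraries). The donor alone gave 2 with only the groups compared and 1 without those mice, and the antibody alone 2 rescaled.

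The titles number the replicates 1 to 5 in each group. With a replicate block the median of the members in the combination stayed at 0.38 with 0 called, and 3 of all genes passed there. Of 30 same-numbered pairs 1 had deviations that correlated over 0.1 (range -0.08 to 0.11), and 7 of 20 libraries were closest on average to their own number, so the numbers were not taken to pair mice.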
